A study of Mus musculus with 8 samples.

Results

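The genes described here code for the subunits, activators and inhibitor of the proteasome. They were taken as every gene with a probe whose name on the array is Psm followed by a letter from a to g and a number. These were 42 genes with 63 probes, of which 61 passed the filter on dim probes, out of 19054 genes tested. The 42 comprised 18 genes of the 20S core (8 Psma and 10 Psmb), 23 genes of the regulatory particles (6 Psmc, 14 Psmd and 3 Psme) and Psmf1, which codes for the inhibitor PI31. All 42 were tested, since the probe that stood for each was well above background on all 8 arrays and saturated on 0.

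RNA came from mouse embryonic stem cells of the V6.5 line (mixed C57BL/6 and 129SV strain) that were freed of feeder cells and differentiated for 12 days into primordial germ cells in vitro. Every group, controls included, carried DAZL, a germ cell protein that binds RNA, as a fusion with GFP and V5, and the labels used here give no promoter or clone for this construct. Lysates were not crosslinked before RNA immunoprecipitation (IP), and each of the 4 groups had 2 arrays: total input RNA without an antibody, a mock IP with normal IgG of mouse, a V5 IP and a GFP IP, each with an antibody to that tag (together the tag IPs). The design text speaks of independent experiments but the labels name no separate cultures, so the p-values below rest on a spread between arrays that could be partly technical. Replicate 1 of each group lay on one slide and replicate 2 on the other.

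The proteasome is the main protease for proteins that carry ubiquitin. Its 20S core is a barrel of alpha and beta rings with the proteolytic sites inside the beta rings. The 19S regulatory particle caps the barrel, binds and removes ubiquitin, and unfolds the substrate with a ring of ATPases. Other activators open the core without ubiquitin. Germ cells of the testis carry their own alpha subunit, PSMA8, in place of its close relative PSMA7, and cells exposed to interferon swap the catalytic beta subunits for those of the immunoproteasome.

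The share of probes well above background ran from 61.3% (mock 1) to 70.5% (input 1), and the 75th percentile of processed intensity was 363 on mock 1 and 665 to 1170 on the other arrays. Of 10 primordial germ cell markers, 9 were found and all 9 were above background on both input arrays; Prdm14 was not found. Their summed log2 level was 5.48 to 5.95 on the input and mock arrays and 6.65 to 7.38 on the tag IP arrays. All 5 fibroblast markers were also above background on both input arrays, with a summed log2 level of 3.07 to 4.29 on input and mock arrays and 2.15 to 2.61 on tag IP arrays. All 4 neuroectoderm markers were above background there too, at 1.85 to 3.03 on input and mock arrays and 3.19 to 4.30 on tag IP arrays, as were 4 of 5 mesoderm, 3 of 5 endoderm and 1 of 3 blood markers (Ptprc and Spi1 were not). The summed log2 level of the mesoderm markers was 1.98 to 2.76 on input and mock arrays and 1.44 to 2.14 on tag IP arrays, that of the endoderm markers -0.65 to 0.99 and -0.94 to -0.51, and that of the blood markers -5.84 to -4.84 and -6.28 to -5.42. The part of these cell types in the results below was not tested. In bulk RNA such as this, fewer cells of a type and less RNA per cell cannot be told apart.

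A level below is the log2 processed intensity of a gene's probe minus the 75th percentile of its array. Levels are compared between arrays for 1 gene, not between genes. A fold is thus a change relative to everything else on the array, not an amount recovered. A gene is called when limma's Benjamini-Hochberg adjusted p over all genes was under 0.05, and "rose" and "fell" are used of called genes alone.

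Most proteasome subunit genes lay lower in the IPs than in input, and a few stood out from the rest with both tag antibodies. Psma8, the germline alpha subunit, and Psmd11, a lid subunit that joins the lid to the ATPases, rose in both tag IPs against mock IP. The immunoproteasome genes Psmb8, Psmb9 and Psmb10, the catalytic gene Psmb5, the activator gene Psme1 and the inhibitor gene Psmf1 fell in both. Of all genes 21.8% (V5) and 26.6% (GFP) were called lower there. Centring each array on the median of the tested genes kept all of these calls in the GFP IP. In the V5 IP it kept the higher calls of Psma8 and Psmd11, and of these lower calls those of Psmb10, Psme1 and Psmf1 alone. Normexp background correction ended all of these lower calls in the V5 IP and both calls of Psmd11, and kept both calls of Psma8. With the mean of all kept probes Psmf1 lay at 0.033 (V5) and 0.16 (GFP). All 6 ATPase genes fell in both tag IPs against input, where 14.4% (V5) and 17.2% (GFP) of all genes were called lower, but for Psmc6 the call rested on the probe chosen.

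**Figure D1:**
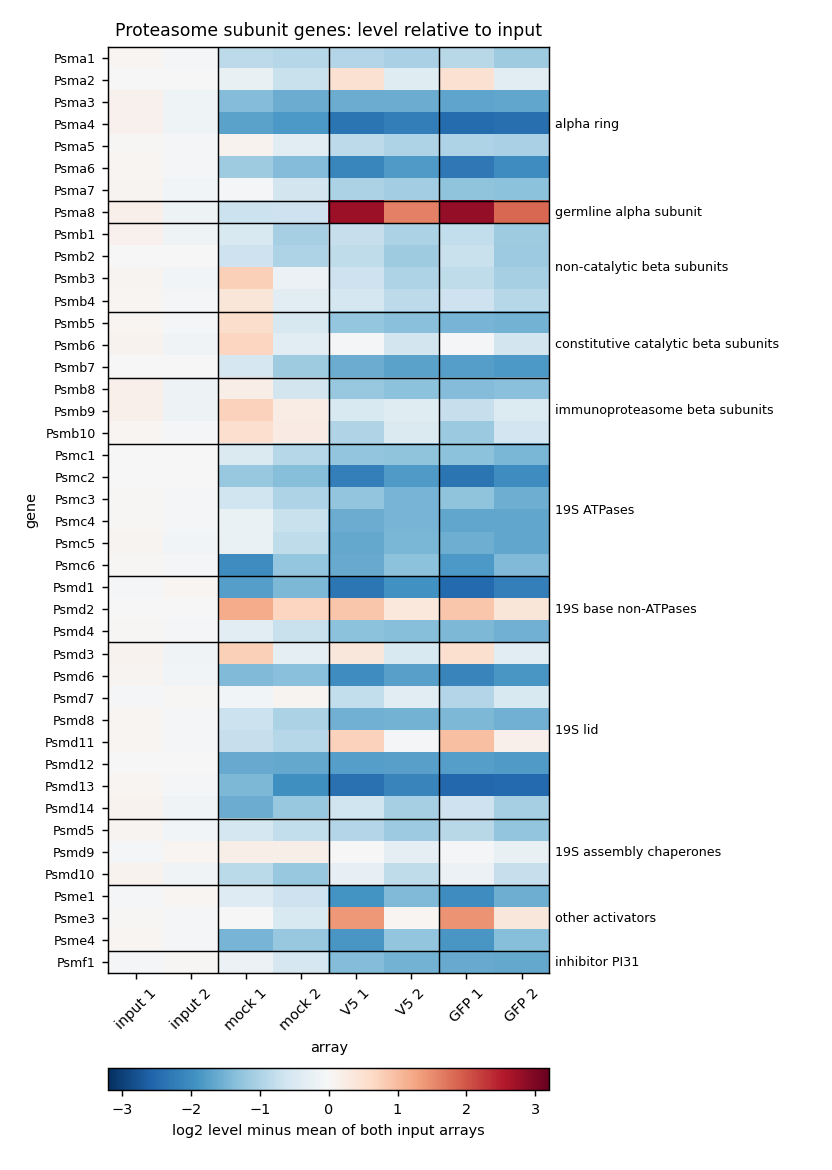
Level of each of the 42 genes on each of the 8 arrays, as the log2 level minus the mean of both input arrays (colour scale from blue, lower, to red, higher). Genes are grouped by role; Psma8 is the darkest red on the tag IP arrays, and most other genes are blue on all 6 IP arrays.

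The tag IPs were set against mock IP to find RNAs recovered with the fusion protein beyond what normal IgG brings down, through either of its tags. In the V5 IP 2 of the 42 genes were called higher and 12 lower, where 14.5% and 21.8% of all genes tested were. In the GFP IP 2 were called higher and 18 lower, where 16.3% and 26.6% of all genes were. Both higher calls, Psma8 and Psmd11, and all 12 lower calls of the V5 IP were also called in the GFP IP, though both comparisons use the same mock arrays. The share of members called lower was thus near that of all genes in the V5 IP (28.6%) and above it in the GFP IP (42.9%), and the share called higher (4.76% in each) was below it. The median log2 fold change of the 42 genes was -0.54 in the V5 IP and -0.65 in the GFP IP, against -0.45 and -0.44 over all genes tested. Since the median of all genes lay below 0, each array was also centred on that median, which left 4 genes called lower in the V5 IP (Psmb10, Psmc4, Psme1 and Psmf1) and 9 in the GFP IP, against 8.16% and 15.2% of all genes, with the same 2 called higher (15% and 17.6% of all genes). With the slide as a replicate block, 3 were higher and 21 lower in the V5 IP and 4 higher and 24 lower in the GFP IP, against 19.3%, 38.8%, 20.9% and 40.2% of all genes. The lower calls were not stable to single arrays. Those in the V5 IP all ended without mock 1, input 1, input 2 or V5 1, and were fewer without V5 2. Those in the GFP IP all ended without GFP 1 and were fewer without mock 1, GFP 2, input 1 or input 2. Such refits leave 1 array in a group, and in some of them the lower calls of all genes were fewer as well.

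**Figure D2:**
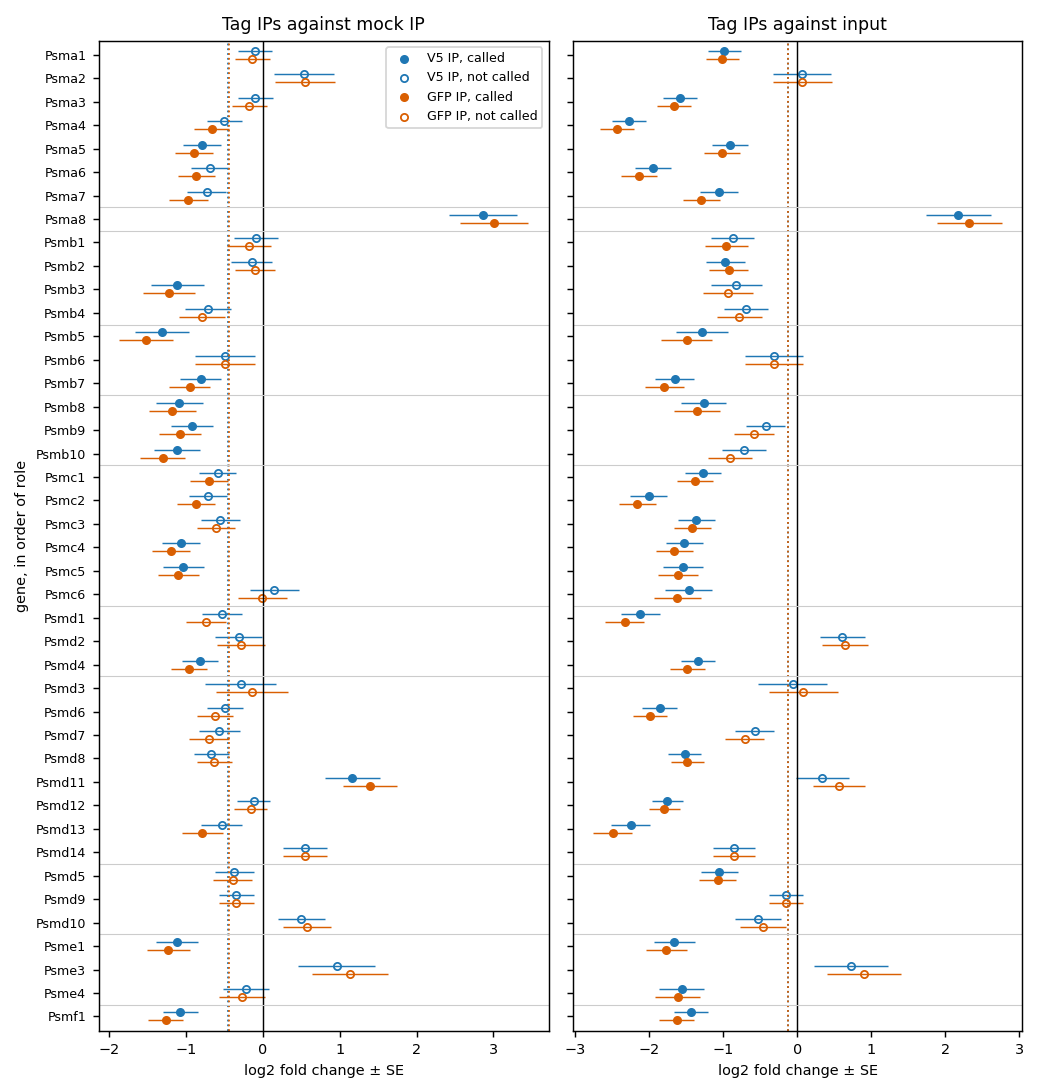
Log2 fold change (x axis) with the standard error of the limma fit for each gene (y axis, by role), against mock IP on the left and against input on the right. Filled points are called and dotted lines give the median of all genes tested; Psma8 lies farthest to the right in both panels, and more points are filled on the left of 0 against input (26 in the V5 IP and 27 in the GFP IP) than against mock IP (12 and 18).

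Psma8 had levels of 1.76 and 1.45 on the input arrays, 0.91 and 0.93 on the mock arrays, 4.35 and 3.22 on the V5 arrays and 4.42 and 3.45 on the GFP arrays. All 4 tag IP arrays lay above all 4 control arrays, and slide 1 was the higher slide in both tag IPs. Over mock IP, Psma8 rose 7.28-fold in the V5 IP (log2 2.86 ± 0.44 SE, limma adjusted p = 0.00577) and 8.06-fold in the GFP IP (log2 3.01 ± 0.44, adjusted p = 0.00422). These fold changes lay at percentiles 99.2 and 99.4 of all genes tested. Psma8 had 1 probe on the array, so its values could not be set beside those of another probe. It also rose over input, 4.52-fold in the V5 IP (adjusted p = 0.0115) and 5.01-fold in the GFP IP (adjusted p = 0.00776). In mock IP against input it lay at -0.69 ± 0.44 (adjusted p = 0.306). The V5 call over mock IP ended without mock 1 (adjusted p = 0.0580, log2 2.85), and the calls over input ended without input 2 (adjusted p = 0.0797 in the V5 IP and 0.0575 in the GFP IP). The V5 call over input also ended without input 1 (adjusted p = 0.0612) or V5 1 (adjusted p = 0.0591, log2 1.61).

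Psma7, the somatic relative of Psma8, went the other way. Its levels were 5.80 and 5.63 in input, 5.65 and 5.13 in mock IP, 4.70 and 4.61 in the V5 IP and 4.44 and 4.39 in the GFP IP. All 4 tag IP arrays lay below all 4 control arrays. Psma7 fell in the GFP IP against mock IP (log2 -0.97 ± 0.25, limma adjusted p = 0.021) and lay at -0.73 ± 0.25 in the V5 IP (adjusted p = 0.0549, or 0.0202 with the slide as a replicate block). Against input it fell in both (log2 -1.06, adjusted p = 0.0205, and -1.30, adjusted p = 0.0085).

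The other alpha ring genes lay between -0.90 and 0.54 against mock IP, with Psma5 called lower in both tag IPs and Psma4 and Psma6 in the GFP IP. Psma2 was the alpha ring gene with the highest fold change, at 0.53 ± 0.39 in the V5 IP (limma adjusted p = 0.301) and 0.54 in the GFP IP (adjusted p = 0.287). Against input, 6 of the 7 alpha ring genes other than Psma8 fell in both tag IPs, and Psma2, at 0.06 and 0.07, was not called.

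**Figure D3:**
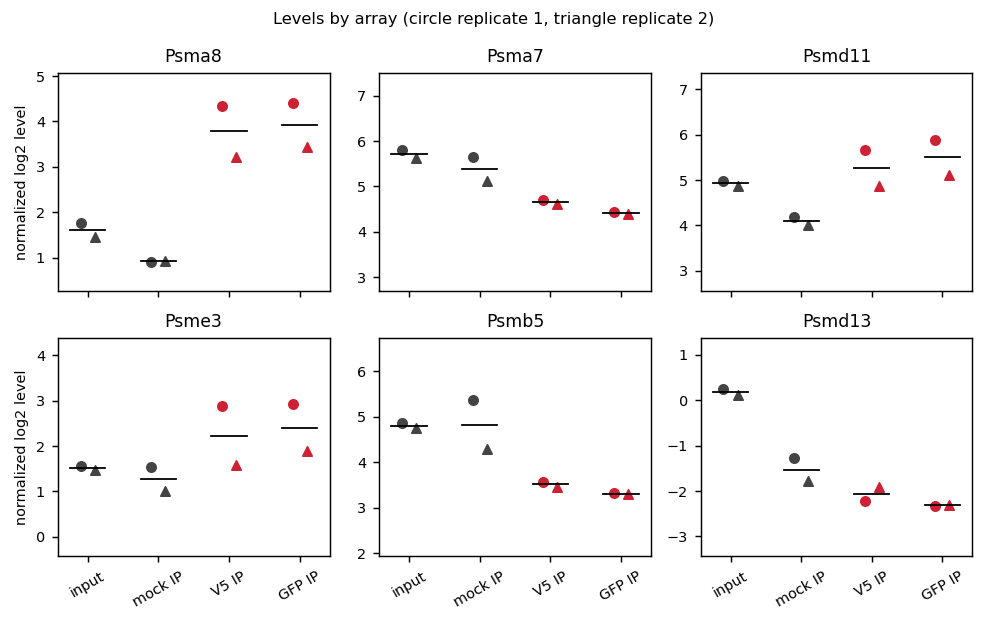
Normalized log2 level of 6 genes on each array, by group, with circles for replicate 1, triangles for replicate 2 and a bar at the mean of both; each panel spans the same number of log2 units but starts at its own level. Psma8 and Psmd11 have all 4 tag IP arrays above both mock arrays, Psme3 does so by less on slide 2, and Psma7 and Psmb5 have all 4 below, as does Psmd13, which lay low on the mock arrays as well.

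Among the beta subunits the lowest fold changes against mock IP were those of Psmb5. This gene, which codes for the chymotrypsin-like subunit, had levels of 4.87 and 4.75 in input, 5.37 and 4.29 in mock IP, 3.57 and 3.46 in the V5 IP and 3.32 and 3.30 in the GFP IP. The mock arrays lay on both sides of the input arrays, and all 4 tag IP arrays lay below every control array. Psmb5 fell in the V5 IP against mock IP (log2 -1.31 ± 0.35, limma adjusted p = 0.028) and in the GFP IP (log2 -1.52 ± 0.35, adjusted p = 0.015), and against input (-1.29, adjusted p = 0.0307, and -1.50, adjusted p = 0.0157). Psmb7, the trypsin-like subunit gene, was also called lower in all 4 of these comparisons, at -0.81 and -0.95 against mock IP and -1.66 and -1.80 against input. Psmb6, the caspase-like subunit gene, was called in none, at -0.50 in both tag IPs against mock IP (adjusted p = 0.333 and 0.327).

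All 3 immunoproteasome genes were called lower in both tag IPs against mock IP, with a median of -1.09 in the V5 IP and -1.18 in the GFP IP. Psmb10, the inducible partner of Psmb7, had levels of 3.19 and 3.09 in input, 3.68 and 3.41 in mock IP, 2.18 and 2.67 in the V5 IP and 1.94 and 2.53 in the GFP IP. Against mock IP its fold change was -1.12 ± 0.30 in the V5 IP (limma adjusted p = 0.0278) and -1.31 ± 0.30 in the GFP IP (adjusted p = 0.0146). Against input it was not called (-0.72, adjusted p = 0.11, and -0.91, adjusted p = 0.0503, or 0.0231 in the GFP IP with the slide as a replicate block).

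Psmb8, the inducible partner of Psmb5, had levels of -0.71 and -1.05 in input, -0.66 and -1.46 in mock IP, -2.10 and -2.20 in the V5 IP and -2.26 and -2.22 in the GFP IP. Its fold change was -1.09 ± 0.31 in the V5 IP and -1.18 ± 0.31 in the GFP IP against mock IP (limma adjusted p = 0.0321 and 0.021), and it fell against input as well (-1.27, adjusted p = 0.0213, and -1.36, adjusted p = 0.0141). Psmb9, the inducible partner of Psmb6, stood at 0.29 and -0.03 in input, 0.88 and 0.38 in mock IP, -0.35 and -0.24 in the V5 IP and -0.60 and -0.31 in the GFP IP. It fell against mock IP (-0.93 ± 0.27, adjusted p = 0.0349, and -1.08, adjusted p = 0.0188) and was not called against input (-0.43, adjusted p = 0.272, and -0.58, adjusted p = 0.135). For Psmb9 and Psmb10 both mock arrays lay above both input arrays, so the difference from mock IP was larger than that from input.

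Of the non-catalytic beta genes, Psmb3 was called lower in both tag IPs against mock IP (-1.11, limma adjusted p = 0.0393, and -1.22, adjusted p = 0.0253), and Psmb1, Psmb2 and Psmb4 were not, though Psmb4 passed with the slide as a replicate block (adjusted p = 0.0255 and 0.0152). Psmb2 had the fold change against mock IP closest to 0 among the Psmb genes when both tag IPs are averaged, with levels of 1.04 and 0.71 in mock IP, 0.88 and 0.56 in the V5 IP and 0.99 and 0.55 in the GFP IP. The tag IP and mock arrays of Psmb2 overlapped (-0.15, adjusted p = 0.67, and -0.10, adjusted p = 0.766). On the input arrays it stood at 1.67 and 1.72, above all 6 IP arrays, and it fell against input (-0.97, adjusted p = 0.0316, and -0.93, adjusted p = 0.0323).

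In the 19S particle the 6 ATPase genes Psmc1 to Psmc6 had a median of -0.65 in the V5 IP and -0.79 in the GFP IP against mock IP, with 2 called lower in the V5 IP (Psmc4 and Psmc5) and 4 in the GFP IP (also Psmc1 and Psmc2). Psmc4 had levels of 4.03 and 3.95 in input, 3.78 and 3.27 in mock IP, 2.42 and 2.51 in the V5 IP and 2.33 and 2.32 in the GFP IP. All 4 tag IP arrays lay below every control array. Its fold change was -1.07 ± 0.25 in the V5 IP and -1.20 ± 0.25 in the GFP IP against mock IP (limma adjusted p = 0.0216 and 0.012).

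Psmc6 differed between its probes. The brighter probe read 4.58 and 4.51 in input, 2.55 and 3.31 in mock IP, 2.92 and 3.23 in the V5 IP and 2.71 and 3.13 in the GFP IP. The tag IP and mock arrays overlapped (0.15, limma adjusted p = 0.721, and -0.01, adjusted p = 0.986), and all 6 IP arrays lay below input. A dimmer probe, listed on the array under another transcript record, read 1.64 and 1.68 in input, 0.07 and 0.87 in mock IP, 3.01 and 2.78 in the V5 IP and 2.74 and 2.92 in the GFP IP. On that probe all 4 tag IP arrays lay above all 4 control arrays, 5.37-fold over mock IP in the V5 IP (log2 2.42 ± 0.31, limma adjusted p over all probes = 0.00342) and 5.13-fold in the GFP IP. Its fold change against input was 1.23 in the V5 IP (adjusted p = 0.0248), where the brighter probe gave -1.47 (adjusted p = 0.0158, both over all probes in limma). With the mean of all kept probes Psmc6 was called higher against mock IP (1.29, adjusted p = 0.0243, and 1.18, adjusted p = 0.0219), and the calls against input ended (-0.12, adjusted p = 0.803, and -0.23, adjusted p = 0.6).

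The 3 non-ATPase genes of the 19S base gave 1 lower call in each tag IP against mock IP, Psmd4, which codes for a ubiquitin receptor. Psmd4 had levels of 4.01 and 3.92 in input, 3.64 and 3.25 in mock IP, 2.65 and 2.59 in the V5 IP and 2.52 and 2.44 in the GFP IP. The tag IP arrays were the 4 lowest, and the fold change was -0.82 ± 0.23 in the V5 IP and -0.96 ± 0.23 in the GFP IP against mock IP (limma adjusted p = 0.0328 and 0.0174). The scaffold genes Psmd1 and Psmd2 were not called against mock IP, but with the slide as a replicate block Psmd1 was called lower in both tag IPs (limma adjusted p = 0.0468 and 0.0127). Against input they lay apart: Psmd1 fell (-2.12, adjusted p = 0.00252, and -2.34, adjusted p = 0.00181), and Psmd2 lay at 0.61 and 0.64 without a call (adjusted p = 0.18 and 0.15).

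The 8 lid genes had a median of -0.39 against mock IP in both tag IPs, and held the second gene that rose. Psmd11 had levels of 4.99 and 4.88 in input, 4.19 and 4.02 in mock IP, 5.66 and 4.88 in the V5 IP and 5.89 and 5.10 in the GFP IP. All 4 tag IP arrays lay above both mock arrays, and slide 1 was again the higher. Psmd11 rose 2.24-fold in the V5 IP over mock IP (log2 1.16 ± 0.36, limma adjusted p = 0.0395) and 2.63-fold in the GFP IP (log2 1.39 ± 0.36, adjusted p = 0.0202). The V5 arrays overlapped the input arrays, and neither tag IP was called against input (0.34, adjusted p = 0.522, and 0.56, adjusted p = 0.26). The V5 call ended under 8 of the 16 alternatives (adjusted p up to 0.191) and the GFP call under 4 (up to 0.116), among them normexp background correction and leaving out mock 1, mock 2 or the slide 1 array of the tag IP.

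Psmd14, which codes for the deubiquitinase of the lid, also had all 4 tag IP arrays above both mock arrays, with 2.65 and 3.03 in mock IP, 3.61 and 3.17 in the V5 IP and 3.58 and 3.19 in the GFP IP. It was not called (0.55, limma adjusted p = 0.154 and 0.15), and its input arrays, at 4.35 and 4.13, lay above all IP arrays. Psmd13, chosen for its values against input, had levels of 0.25 and 0.11 in input, -1.27 and -1.79 in mock IP, -2.21 and -1.92 in the V5 IP and -2.32 and -2.31 in the GFP IP. It fell against mock IP in the GFP IP (-0.79, adjusted p = 0.0441), and not in the V5 IP (-0.54, adjusted p = 0.134). Of the 3 assembly chaperone genes of the 19S base, Psmd5, Psmd9 and Psmd10, 0 were called in limma against mock IP, and 0 had an unadjusted p under 0.05 in the V5 IP or GFP IP. With the slide as a replicate block Psmd10 was called higher in the GFP IP (0.57, adjusted p = 0.0391).

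Of the 3 activator genes, Psme1 alone was called against mock IP. Psme3, which codes for the nuclear activator of the core, had levels of 1.55 and 1.46 in input, 1.53 and 1.02 in mock IP, 2.89 and 1.58 in the V5 IP and 2.93 and 1.88 in the GFP IP. All 4 tag IP arrays lay above all 4 control arrays, but the slide 2 array of the V5 IP exceeded mock 1 by little. Psme3 was not called (0.96 ± 0.50, limma adjusted p = 0.156, and 1.13 ± 0.50, adjusted p = 0.0989). With the slide as a replicate block it passed in the V5 IP (adjusted p = 0.028) and GFP IP (adjusted p = 0.0135).

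Psme1, a subunit of the interferon-inducible activator that pairs with the immunoproteasome, had levels of 5.09 and 5.20 in input, 4.72 and 4.48 in mock IP, 3.24 and 3.72 in the V5 IP and 3.15 and 3.58 in the GFP IP. It fell against mock IP (-1.12 ± 0.28, limma adjusted p = 0.024, and -1.23 ± 0.28, adjusted p = 0.0142) and against input (-1.66, adjusted p = 0.0058, and -1.77, adjusted p = 0.004). Psme4, the activator gene known for its work in spermatogenesis, lay at -0.22 and -0.27 against mock IP without a call (adjusted p = 0.577 and 0.483) and fell against input (-1.56, adjusted p = 0.00954, and -1.62, adjusted p = 0.00716).

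Psmf1, which codes for the inhibitor PI31, had levels of -0.54 and -0.49 in input, -0.69 and -1.06 in mock IP, -1.89 and -2.01 in the V5 IP and -2.13 and -2.16 in the GFP IP. It fell against mock IP (-1.08 ± 0.23, limma adjusted p = 0.0185, and -1.27 ± 0.23, adjusted p = 0.00885) and against input (-1.44 and -1.63). Its 3 kept probes were at odds. The dimmest, listed under another transcript record, read -4.36 and -4.36 in input, -4.87 and -4.24 in mock IP, -2.57 and -3.20 in the V5 IP and -2.33 and -2.81 in the GFP IP, so that all 4 tag IP arrays were above all 4 control arrays. That probe lay 3.17-fold higher in the V5 IP than in mock IP (log2 1.67, limma adjusted p over all probes = 0.0162) and 3.95-fold higher in the GFP IP. The third, under the same record as the dimmest, read -1.34 and -1.24 in input and -1.67 and -1.38 in mock IP. Its levels were -2.18 and -1.87 in the V5 IP and -1.86 and -1.67 in the GFP IP. With the mean of all kept probes the lower calls of Psmf1 ended against mock IP (0.033, adjusted p = 0.912, and 0.16, adjusted p = 0.568) and against input (-0.23, adjusted p = 0.46, and -0.11, adjusted p = 0.745).

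Of the 15 members with more than 1 kept probe, 3 had probes that differed in sign against mock IP in the V5 IP (Psmd12, Psme4 and Psmf1) and 4 in the GFP IP (also Psmc6). Of the 3 kept probes of Psmd12, a lid gene, 1 lay higher in the V5 IP than in mock IP (0.90 ± 0.28, limma adjusted p over all probes = 0.0462), where the brightest lay at -0.12. Against input the sign differed between probes for 2 of the 15 in each tag IP, Psmc6 and Psmf1.

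Set against input, more of these genes were called lower in the tag IPs than against mock IP, and Psma8 alone was called higher. In the V5 IP 26 of the 42 were called lower and 1 higher, where 14.4% and 13.9% of all genes were. In the GFP IP 27 were lower and 1 higher, where 17.2% and 15.8% of all genes were. All 26 lower calls of the V5 IP were among the 27 of the GFP IP, the other being Psmb1, and both comparisons share the input arrays. The median log2 fold change was -1.16 in the V5 IP and -1.33 in the GFP IP, against -0.13 and -0.12 over all genes. The 14 genes called in neither tag IP were Psma2, Psmb3, Psmb4, Psmb6, Psmb9, Psmb10, Psmd2, Psmd3, Psmd7, Psmd9, Psmd10, Psmd11, Psmd14 and Psme3. This list is that of the brightest probes, and other kept probes of Psmb3, Psmd7, Psmd9 and Psmd14 lay farther below input. That of Psmb3 read 4.98 and 4.88 in input, 4.09 and 3.76 in the V5 IP and 3.89 and 3.66 in the GFP IP. That of Psmd14 read 3.21 and 2.92 in input, 1.90 and 1.42 in the V5 IP and 1.90 and 1.42 in the GFP IP. For Psmd7 such a probe read 2.85 and 2.80 in input, 1.22 and 0.98 in the V5 IP and 1.02 and 0.78 in the GFP IP. For Psmd9 it read 0.20 and 0.44 in input, -0.62 and -0.82 in the V5 IP and -0.74 and -0.86 in the GFP IP.

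The lowest fold changes against input were those of Psmd13, a lid gene, at -2.25 ± 0.26 in the V5 IP and -2.50 ± 0.26 in the GFP IP (limma adjusted p = 0.00238 and 0.00176), and Psma4, an alpha ring gene, at -2.28 ± 0.23 and -2.44 ± 0.23 (adjusted p = 0.00207 and 0.00176). Psma4 had levels of 3.29 and 3.0 in input, 1.44 and 1.30 in mock IP, 0.80 and 0.94 in the V5 IP and 0.67 and 0.74 in the GFP IP. Psmd1 had 2.09 and 2.22 in input, 0.40 and 0.73 in mock IP, -0.17 and 0.23 in the V5 IP and -0.32 and -0.04 in the GFP IP. In both genes most of the distance from input was already there in mock IP, and the tag IP arrays were lower still. Psma4, Psmd1 and Psmd13 were described array by array because of these values.

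Of the lower calls against input, 8 in the V5 IP and 13 in the GFP IP were kept under all 16 alternatives, and Psma3, Psma4, Psma6, Psmc2, Psmd1, Psmd6, Psmd12 and Psmd13 were kept in both tag IPs. The lower calls were fewer in both tag IPs without input 1 or input 2, and in the V5 IP without V5 1. In some such refits the lower calls of all genes were fewer as well. Normexp background correction left 12 lower calls in the V5 IP and 16 in the GFP IP. The 16 alternatives do not include each probe on its own. A dimmer kept probe of Psmd12 read 0.28 and 0.25 in input, 0.27 and -0.25 in the V5 IP and 0.36 and -0.15 in the GFP IP. The dimmer probe of Psmc2 read -3.34 and -3.69 in input, -4.47 and -4.31 in the V5 IP and -4.14 and -4.54 in the GFP IP. With the slide as a replicate block Psmd2 (on its brighter probe) and Psme3 were called higher beside Psma8 in the GFP IP. That block gave 32 lower calls there, where 21.6% of all genes were called higher and 27.3% lower.

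Many of these genes also lay below input in the mock IP, where no antibody against a tag was used. In mock IP against input 12 of the 42 genes were called lower and 0 higher, where 4.26% and 6.41% of all genes were (limma). The 12 were Psma1, Psma3, Psma4, Psma6, Psmc2, Psmc6, Psmd1, Psmd6, Psmd12, Psmd13, Psmd14 and Psme4. Their fold changes ran from -1.77 (Psma4) to -0.88 (Psma1). The median of the 42 genes was -0.68, where all genes had 0.19. At an unadjusted p under 0.05, 1 gene was higher, the scaffold gene Psmd2 (0.93, adjusted p = 0.0869), and it was called higher with the slide as a replicate block (adjusted p = 0.0171, 20.6% of all genes). That block gave 21 lower calls, where 13.7% of all genes were lower. Without mock 1, input 1 or input 2 the 12 lower calls ended, and in some such refits the lower calls of all genes were fewer as well.

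By group overlap, 25 of the 42 genes had all 6 IP arrays below both input arrays, where 16.3% of all genes did. Both mock arrays lay below both input arrays for 28 of the 42 (26.8% of all genes). The 4 tag IP arrays lay below both mock arrays for 28 (44.3% of all genes) and above both for 5, Psma8, Psmd10, Psmd11, Psmd14 and Psme3 (21.3% of all genes). Against input the 4 tag IP arrays lay below for 34 (37.7% of all genes) and above for 3, Psma8, Psmd2 and Psme3 (27.5% of all genes). For Psmd2 this was so on the brighter probe alone. Its dimmer kept probe read 2.77 and 2.60 in input, 3.33 and 2.56 in the V5 IP and 3.37 and 2.58 in the GFP IP.

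The medians of the 20S core and of the regulatory particles were ordered one way against mock IP and the other way against input. Against mock IP the 18 core genes had a median log2 fold change of -0.70 in the V5 IP and -0.83 in the GFP IP, and the 23 regulatory genes -0.50 and -0.61. Against input the core genes had -0.94 and -0.99 and the regulatory genes -1.37 and -1.49. In mock IP against input the core genes had -0.40 and the regulatory genes -0.81. Within the core the alpha and beta genes differed. Against mock IP the Psma genes had a median of -0.31 in the V5 IP and -0.42 in the GFP IP, above the regulatory genes. That place rested on Psma8, since the 7 alpha ring genes without it had -0.504 and -0.666. The regulatory genes had -0.495 and -0.611. The Psmb genes had -0.87 and -1.02, below the regulatory genes. In mock IP against input the Psma genes had -0.78, near the regulatory genes, and the Psmb genes 0.02. That Psmb median was 0.40 on slide 1 and -0.34 on slide 2, where the Psma genes had -0.87 and -0.79. Against mock IP the Psmb median was -1.14 (slide 1) and -0.60 (slide 2) in the V5 IP and -1.34 and -0.69 in the GFP IP. The Psma median, with Psma8 included, was -0.42 and -0.24 in the V5 IP and -0.53 and -0.39 in the GFP IP.

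**Figure D4:**
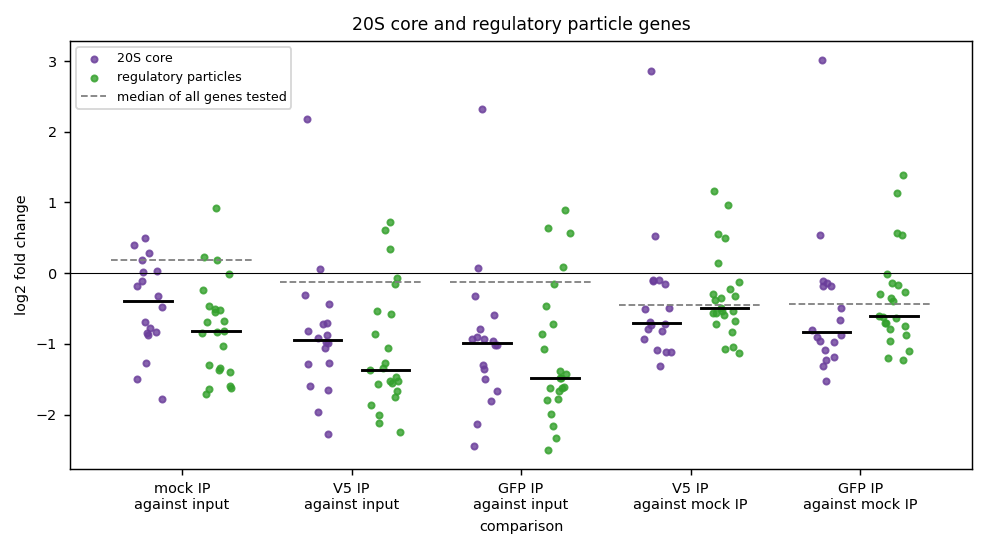
Log2 fold change (y axis) of the 18 genes of the 20S core and the 23 genes of the regulatory particles in 5 comparisons (x axis), 1 point per gene, with a solid bar at the median of each set and a dashed line at the median of all genes tested. The core median lies above the regulatory median in the 3 comparisons against input and below it in the 2 against mock IP.

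In the V5 IP against mock IP 7 core genes (38.9%) and 4 regulatory genes (17.4%) fell, where 21.8% of all genes did. In the GFP IP 10 core genes (55.6%) and 7 regulatory genes (30.4%) fell, where 26.6% of all genes did, so that the regulatory counts were near those of all genes. Against input 10 core (55.6%) and 15 regulatory genes (65.2%) fell in the V5 IP and 11 (61.1%) and 15 (65.2%) in the GFP IP, where 14.4% and 17.2% of all genes did. For mock IP against input these were 4 (22.2%) and 8 (34.8%), where 4.26% of all genes fell. The core minus the regulatory median against mock IP was -0.51 to -0.09 in the V5 IP and -0.48 to -0.20 in the GFP IP under the alternatives that moved it. Against input it was 0.29 to 0.43 in the V5 IP, 0.33 to 0.50 in the GFP IP and 0.29 to 0.47 in mock IP under such alternatives, 8 in each comparison. On slide 1 the medians against mock IP were -0.94 (core) and -0.57 (regulatory) in the V5 IP and -1.07 and -0.65 in the GFP IP. On slide 2 they lay closer, at -0.45 and -0.38 in the V5 IP and -0.58 and -0.52 in the GFP IP, a difference of -0.07 and -0.06. These medians describe the genes and were not tested against each other.

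V5 IP against GFP IP sets the tag antibodies against each other. In limma 0 of the 42 genes were called, 0 had an unadjusted p under 0.05, and 0 were called under any of the 16 alternatives. Over all genes 0% were called and 189 had an unadjusted p under 0.05. Fold changes of the 42 genes ran from -0.23 (Psmd11) to 0.25 (Psmd13), with a median size of 0.11 against 0.12 over all genes. Psma8 lay at -0.15 between the antibodies.

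A second list held 31 genes around the proteasome: ubiquitin genes, activating enzymes, shuttle factors, proteasome-bound deubiquitinases and ubiquitin receptors, and regulators of proteasome genes. Of these 30 were tested. In the V5 IP against mock IP 10 of the 30 were called higher and 3 lower, where 14.5% and 21.8% of all genes were. In the GFP IP 12 were called higher and 6 lower, where 16.3% and 26.6% of all genes were. The median was 0.04 in the V5 IP and 0.11 in the GFP IP, against -0.45 and -0.44 over all genes. Against input 8 rose and 7 fell in the V5 IP, where 13.9% and 14.4% of all genes did, and 10 rose and 7 fell in the GFP IP, where 15.8% and 17.2% did. In mock IP against input 0 of the 30 were called by limma, where 6.41% of all genes were called higher and 4.26% lower. There 5 of the 30 had an unadjusted p under 0.05, as did 6292 of all 19054 genes.

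**Figure D5:**
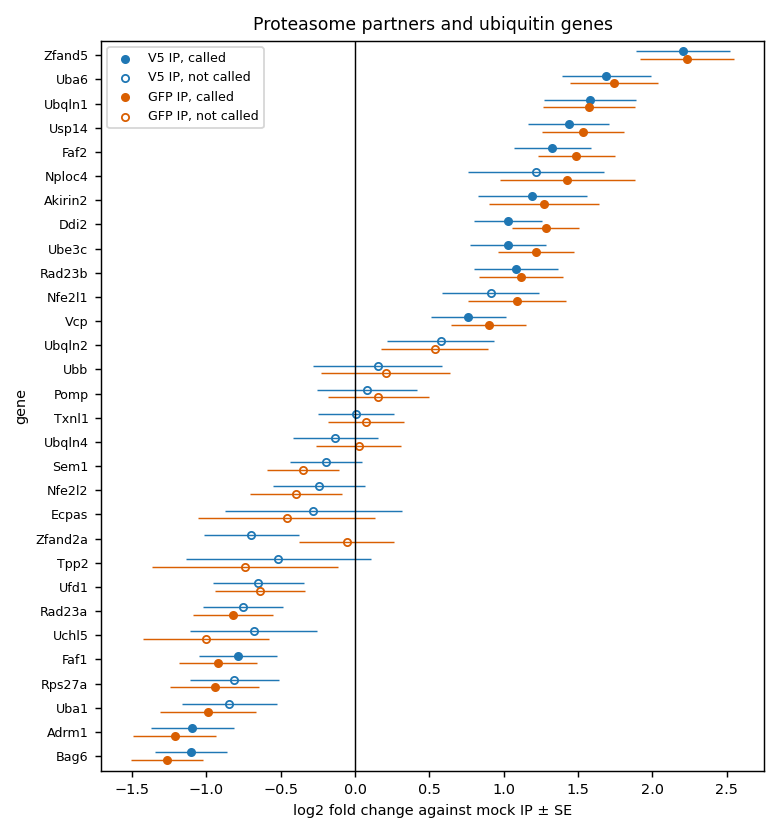
Log2 fold change against mock IP with the standard error of the limma fit (x axis) for the 30 tested genes around the proteasome (y axis), in the V5 IP and GFP IP. Filled points are called; Zfand5 and Uba6 lie highest and Bag6 and Adrm1 lowest.

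Zfand5, which codes for a ubiquitin-binding protein that stimulates the proteasome, had levels of 1.97 and 2.13 in input, 1.20 and 2.04 in mock IP, 3.99 and 3.66 in the V5 IP and 3.88 and 3.83 in the GFP IP. All 4 tag IP arrays lay above all 4 control arrays, and Zfand5 rose 4.62-fold in the V5 IP over mock IP (log2 2.21 ± 0.32, limma adjusted p = 0.00444) and 4.71-fold in the GFP IP (adjusted p = 0.00374). Uba6, a ubiquitin-activating enzyme gene, rose 3.23-fold (adjusted p = 0.00951) and 3.35-fold (adjusted p = 0.00703), from -0.22 and -0.08 in mock IP to 1.37 and 1.71 in the V5 IP and 1.22 and 1.96 in the GFP IP. Among other genes that rose in both were Ubqln1 and Rad23b, whose proteins shuttle ubiquitinated substrates, Usp14, a deubiquitinase that binds the 19S particle, Vcp, an ATPase that extracts substrates, and Akirin2, which brings proteasomes into the nucleus. Nfe2l1, a transcription factor of proteasome genes, rose in the GFP IP, and Ddi2, the protease that activates it, in both.

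Adrm1, a ubiquitin receptor of the 19S base, went the other way, with levels of 1.76 and 1.59 in input, 2.0 and 1.32 in mock IP, 0.63 and 0.50 in the V5 IP and 0.51 and 0.39 in the GFP IP. It fell against mock IP (-1.09, limma adjusted p = 0.0256, and -1.21, adjusted p = 0.015), with all 4 tag IP arrays below every control array. Bag6, a chaperone of mislocalized proteins, fell as well (-1.11, adjusted p = 0.019, and -1.26, adjusted p = 0.00984). The ubiquitin fusion gene Rps27a and the activating enzyme gene Uba1 fell in the GFP IP.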

How the data were processed

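The authors deposited linear spot intensities from Agilent Feature Extraction 9.1.3.1, per the file headers, and their processed intensity is background-subtracted and detrended. The authors also deposited a series table of background-subtracted signal normalized to the median, per the file headers, with a quality score that served only to match its 45018 entries to spots within 1e-05. Its scale was found by comparison with the background-subtracted intensity, and log2 of the deposited signal plus 0.1 served as an alternative. The genome build and probe sequences are not given in the sources used here.

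From the deposited intensities, log2 processed intensity minus each array's 75th percentile over gene probes was computed. Replicate spots were averaged after removal of outliers. Probes stayed in if some group had both its arrays well above background (28132 of 41174 probes), and a gene was represented by its brightest such probe on average. Members were matched by the name on the array, and other genes by RefSeq symbol, without coordinates. The comparisons used limma 3.58.1 (R 4.3.3; lmFit, then eBayes, two-sided), with all 8 arrays sharing 1 estimate of the spread and Benjamini-Hochberg adjustment over all genes. Precision is limited by how few arrays there are. The script was tested on simulated data.

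Array-by-array values were to be given for the member of each family with the highest and the lowest mean fold change against mock IP, for Psmf1 and for the tissue-restricted subunits; Psma4, Psmd1, Psmd13 and Psmd14 were added after their values were seen. From the list of genes around the proteasome the 2 highest and the 2 lowest were described. The members, lists and alternatives were chosen with earlier results of these data known. Alternatives were quantile normalization, median centring, normexp with an offset of 50, the authors' deposited table, no filter on dim probes, the mean of all kept probes, each probe on its own, a fit of only the groups compared, the replicate number as a block, and leaving out each array. The replicate number marks the slide, per the file headers, and deviations of same-numbered arrays from their group means correlated at 0.31 to 0.78 over genes in the 6 pairs of groups. Each group has 1 array on each slide, so the slide is a term that can be fitted. Some genes of the lists are not reported here.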

Additional observations from a re-analysis of the deposited data

How the results depend on the processing

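The medians of the 20S core and of the regulatory particles were below 0 in each of the 5 comparisons with mock IP or input under the alternatives run, though refits that leave the fold changes as they are could not move them, and V5 IP against GFP IP gave 0 calls among the 42 genes under each alternative. Counts of called genes moved, and the cause was not tested. Shares of all genes called are given above for median centring and the replicate block alone. For the other alternatives the counts do not show whether a move was particular to these genes. In V5 IP against mock IP (2 higher, 12 lower), the higher calls were 1 with normexp, with no filter on dim probes and with only the groups compared, and the lower calls were 4 with median centring, 5 with the authors' deposited table, 2 with no filter, 0 with normexp and 0 with only the groups compared. In GFP IP against mock IP (2 higher, 18 lower), there was 1 higher call with normexp, and the lower calls were 9 with median centring, 11 with the authors' deposited table, 11 with no filter, 3 with normexp and 9 with only the groups compared. Against input, normexp left 12 lower calls in the V5 IP and 16 in the GFP IP. In mock IP against input (12 lower), the lower calls were 22 with quantile normalization, 2 with no filter, 0 with normexp and 0 with only the groups compared.

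The replicate block, which pairs arrays of one slide, gave 21 lower calls in the V5 IP and 4 higher calls in the GFP IP against mock IP, 3 higher calls in the GFP IP against input, and 1 higher and 21 lower calls in mock IP against input. It could not change a direction, since each group has 1 array on each slide and the block leaves the fold changes as they are.

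Leaving out each array in turn gave 0 to 3 higher and 0 to 18 lower calls in the V5 IP against mock IP, and 1 to 3 and 0 to 21 in the GFP IP. Against input it gave 0 to 1 higher and 8 to 28 lower calls in the V5 IP, 0 to 1 and 14 to 30 in the GFP IP, and 0 to 11 lower calls in mock IP. Where an array was left out its group had 1 array, which is assumed to vary like the others. The counts of all genes called also moved widely in these refits, so the moves were not particular to the members.

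With the mean of all kept probes, Psmf1 turned to 0.033 in the V5 IP and 0.16 in the GFP IP against mock IP, and Psmc6 to 1.18 in the GFP IP; Psmc6 became a higher call in the V5 IP (1.29), and the lower calls of both genes against input ended (-0.12 and -0.23 for Psmc6, -0.23 and -0.11 for Psmf1). The construction of the mean shows why, since the probes of each gene gave different fold changes. The standing probes of the 42 genes were well above background on all arrays. Normexp background correction still lowered the counts of lower calls, and the part of background in them was not tested.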

Other observations

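Genes of 3 proteasome assembly chaperones and of a thymus-specific beta subunit are on the array under older names and were not counted among the 42. Psmg1 and Psmg2, whose proteins form a pair that builds the alpha ring, lay at 0.05 and 0.23 in the V5 IP and -0.03 and 0.33 in the GFP IP against mock IP, and neither was called. Psmg3 fell in both (limma log2 -1.04, adjusted p = 0.0269, and -1.15, adjusted p = 0.0163). Psmb11, the thymus subunit, was not called (-1.04, adjusted p = 0.16, and -1.13, adjusted p = 0.128).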
